A study of Homo sapiens with 12 samples.

Results

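Disome footprints are the longer RNA fragments left when nuclease cannot cut between 2 ribosomes that stand directly behind one another on an mRNA. The comparison here set the 1 disome library made after 10 µM girolline against the 2 disome libraries made with DMSO, the solvent, so 3 of the 12 libraries of the study. The cells were HEK293T Flp-In, which descend from human embryonic kidney and carry an engineered site for inserting transgenes, and the labels give their genotype as wild type. Exposure lasted 2 h. The other libraries were RNA-seq and monosome footprints with the same treatments and the disome library at 1 µM, and their values stand beside the disome values where they bear on them.

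A disome forms where a trailing ribosome runs up against a slow or halted one, so disome footprints mark queues and collisions on coding sequence. eIF5A is a translation factor that binds ribosomes and helps them form peptide bonds at slow stretches and release the chain at stop codons. Girolline is a small molecule from a marine sponge, and the title of the series places its action at eIF5A and ties it to sequence context. Cells read collided ribosomes as a sign of damaged mRNA or failing translation and have dedicated factors that split them and degrade the unfinished chain.

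The deposited disome tables list counts per transcript, and reads were counted again in overlapping transcripts. Summed over all 93916 transcripts with a coding length, counts reached 3091715 and 5151900 in the DMSO pair and 5769026 after 10 µM. Neighbouring transcripts whose counts were nearly equal were joined into a locus, and 1 transcript, the one with the highest count, stood for it. This left 43852 loci with disome counts, and 1217020, 2031364 and 2363920 counts in the 3 libraries. The tables give no gene names, so a locus is described by the coding length of its transcript, and 2 identifiers are printed in each direction. Whether the tables hold the genes that mark kidney cells was therefore not analysed here.

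At 10 µM the distribution of disomes over loci changed widely and in both directions. Of 19481 loci with enough counts to test, 3787 were higher than with DMSO (19.4%) and 2640 were lower (13.6%), by edgeR's quasi-likelihood test at a Benjamini-Hochberg false discovery rate of 0.05. The loci in either direction made up 33.0% of those tested. The median log2 fold change was 1.48 among the higher and -1.14 among the lower loci. The higher loci had a median of 194 codons and the lower loci 460, beside 280 over all loci tested. Median levels with DMSO were 12.7 CPM (counts scaled to a common library size) at the higher and 45.1 CPM at the lower loci. The DMSO level is also the base of the fold change, so these 2 levels are not independent of the calls. Without any model, 3021 loci (15.5%) were more than 2-fold above both DMSO libraries and 1977 (10.1%) more than 2-fold below both. These values are relative to the other loci of a library, so a rise or fall shared by all disomes would not show. The lone 10 µM library was assumed to vary as the DMSO pair does, and nothing in the labels says that this pair came from separate cultures. DESeq2 made fewer calls on the same counts, 855 higher and 427 lower.

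The share of all counts that sat on another locus than before was 7.85% between the DMSO libraries, 26.8% between the 10 µM library and DMSO 1, and 26.7% between it and DMSO 2. The same share at 1 µM was 13.6% against each of them. The redistribution at 10 µM was thus larger than the spread of the DMSO pair, although the libraries differed in depth.

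The question of abundance was taken up by sorting loci by their mean disome level with DMSO. Among 8107 loci under 10 CPM, 1622 were higher and 160 lower, so that rises made up 91.0% of the calls. Without the loci that had neither DMSO library at the level the filter asks for (0 of them called lower), the class held 890 rises and 160 falls (84.8% rises) among 6202 loci. At 10 to 30 CPM the counts were 1136 higher and 809 lower among 6072 loci. The balance then turned. At 30 to 100 CPM 656 loci were higher and 995 lower of 3616, at 100 to 300 CPM 251 were higher and 468 lower of 1195, and at 300 CPM or more 122 were higher and 208 lower of 491. The median log2 fold change went from 0.26 in the lowest class through -0.11, -0.21 and -0.29 to -0.27 in the highest, beside -0.04 over all loci. Without the loci just mentioned, the median of the lowest class was -0.08. That selection uses the DMSO libraries, the base of the change, and can itself lower the median. Together, the 5302 loci with 30 CPM or more held 1029 rises (19.4%) and 1671 falls (31.5%), against background rates of 19.4% and 13.6% over all loci. That background includes the loci under 10 CPM, of which only 1.97% were called lower. Without any model the falls differed little. At 30 CPM or more 11.1% of loci were more than 2-fold below both DMSO libraries, against 10.1% of all loci. More than 2-fold above both were 7.86%, against 15.5% of all loci. DESeq2 gave 464 rises and 412 falls among these 5302 loci, so the surplus of falls there was not seen with that test. It was seen with edgeR in each of the other scalings, filters and units tried.

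**Figure D1:**
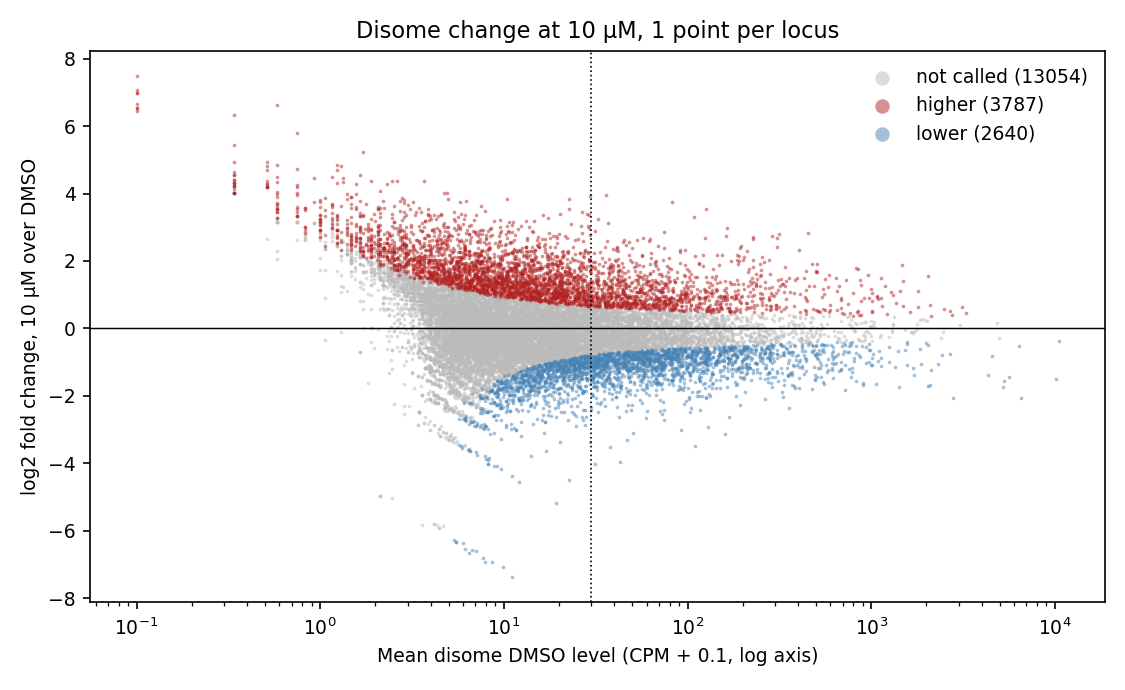
Each point is 1 locus, with its mean disome level in the 2 DMSO libraries on a log axis (CPM plus 0.1) and its log2 fold change at 10 µM over DMSO. Red points were called higher (3787), blue points lower (2640) and grey points neither (13054), and the dotted line marks 30 CPM, right of which blue outnumbers red. The column of points at the far left is the 8 loci with no DMSO count.

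The lowest class needs reading with its depth. The DMSO libraries themselves differed more than 2-fold at 26.0% of loci under 10 CPM, at 4.73% between 10 and 30 CPM and at 0.36% between 30 and 100 CPM. No locus of 300 CPM or more differed that far between them. Of the tested loci, 953 passed the filter on low counts (10 counts at a median library size, 5.14 CPM) through the 10 µM library alone, and 373 of these were called higher. Of 1905 loci with neither DMSO library at that level, 732 were called higher and 0 lower by edgeR. Only 1 of the 1905 was lower at an unadjusted p under 0.05, and DESeq2 called 0 lower, with no adjusted p for 1847. At 300 CPM or more, by contrast, 24.4% of loci lay more than 2-fold from both DMSO libraries, 9.78% above and 14.7% below.

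The class of a locus and its fold change share the DMSO libraries. Setting the class from DMSO 1 and the change against DMSO 2 gave medians of 0.22, -0.08, -0.20, -0.22 and -0.23 from the lowest to the highest class. The reverse gave 0.26, -0.03, -0.17, -0.27 and -0.30. From 10 CPM upward the medians thus fell also when no library entered both values, and the lowest class still held the loci that entered through treated libraries.

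Sorting the same loci by mRNA level gave another order. With classes set from the RNA-seq DMSO libraries, the 392 loci of 300 CPM or more held 174 rises and 99 falls, with a median log2 fold change of 0.20. The 1326 loci of 100 to 300 CPM held 386 rises and 379 falls, and the 5742 loci under 10 CPM 712 rises and 399 falls with a median of -0.17. With classes from the mean of all 4 disome libraries, treated ones included, the 521 loci of 300 CPM or more held 193 rises and 172 falls with a median of -0.0037, and the 3751 loci of 30 to 100 CPM 911 rises and 907 falls. The 1246 loci of 100 to 300 CPM by that mean held 355 rises and 386 falls, with a median of -0.083. A surplus of falls in each class from 30 CPM upward was thus seen only with classes by the disome level with DMSO.

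**Figure D2:**
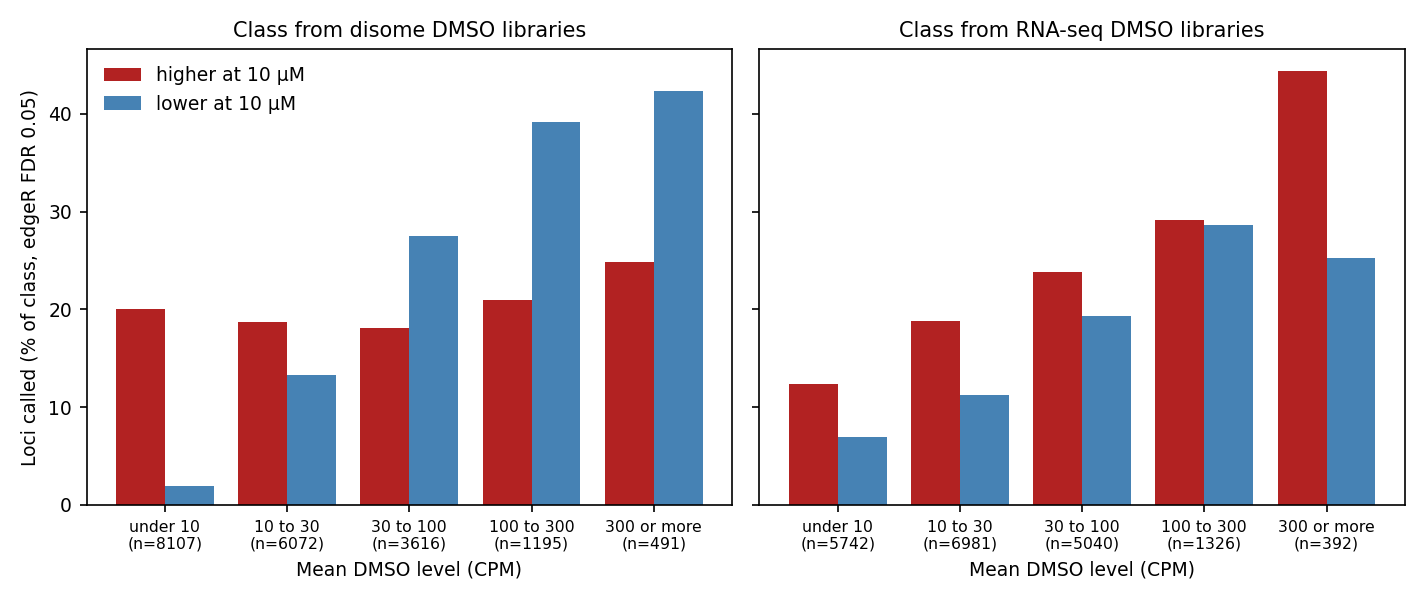
Bars give the percent of loci in each class called higher (red) or lower (blue) at 10 µM by edgeR, with classes from the mean DMSO level in disome libraries on the left and in RNA-seq libraries on the right. In the highest disome class 42.4% of loci were lower and 24.8% higher, and in the highest RNA-seq class 25.3% were lower and 44.4% higher.

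The change also differed with the disome level relative to the RNA-seq level in untreated cells. Loci were sorted by the ratio of disome to RNA-seq CPM in the DMSO 1 libraries into 4 groups of equal size, and their change was taken against disome DMSO 2. In the group with the lowest ratio the median log2 change was 0.53, and 37.5% of loci were more than 2-fold higher against 9.05% more than 2-fold lower. In the group with the highest ratio the median was -0.33, with 8.81% higher and 21.9% lower. The groups between had medians of 0.07 and -0.15. With the roles of the DMSO libraries exchanged, the medians were 0.64, 0.14, -0.13 and -0.44. Median coding lengths of the 4 groups, 273, 325, 329 and 216 codons in the first arrangement, did not follow this order. Without the loci that had neither DMSO library at the filter level, the 4 medians were 0.20, -0.05, -0.19 and -0.36 in the first arrangement and 0.32, 0.05, -0.20 and -0.45 in the second. Leaving those loci out selects on the DMSO libraries that are the base of the change, which can itself lower the medians. The sorting was chosen after the classes above had been seen and carries no test.

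Coding length went with the change at each disome level, and disome level went with it among the longer loci. Among loci of 1000 codons or more with at least 30 CPM, 463 of 856 were lower (54.1%) and 10 higher, with a median log2 fold change of -0.66. From 500 to under 1000 codons 446 of 1373 were lower and 112 higher, with a median of -0.31. Between 300 and 500 codons the 252 falls and 238 rises nearly balanced. Shorter loci with at least 30 CPM were more often higher than lower: 230 and 189 at 200 to under 300 codons, 334 and 232 at 100 to under 200 codons, and 105 and 89 under 100 codons. Under 30 CPM, rises outnumbered falls in the short classes by more, with 445 against 91 below 100 codons, while 130 of 877 loci of 1000 codons or more were lower and 7 higher.

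The order by length was present at each level of disomes. At 300 CPM or more, 46 of the 58 loci of 1000 codons or more were lower and 0 were higher by edgeR, with a median of -0.79. None was higher at an unadjusted p under 0.05, and DESeq2 called 31 lower and 0 higher. At the same level the 188 loci of 300 to under 1000 codons held 96 falls and 34 rises, with a median of -0.46, and the 245 loci under 300 codons held 66 falls and 88 rises, with a median of 0.09. The corresponding medians at 10 to 30 CPM were -0.57, -0.14 and 0.08, so that the loci under 300 codons differed little between these levels. The same order of length held within each RNA-seq class, where the 221 loci under 300 codons with 300 CPM or more of mRNA held 129 rises and 28 falls and the 43 of 1000 codons or more held 3 rises and 23 falls. RNA-seq and disome tables appear to count slightly different parts of the coding region, which matters most for short loci.

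**Figure D3:**
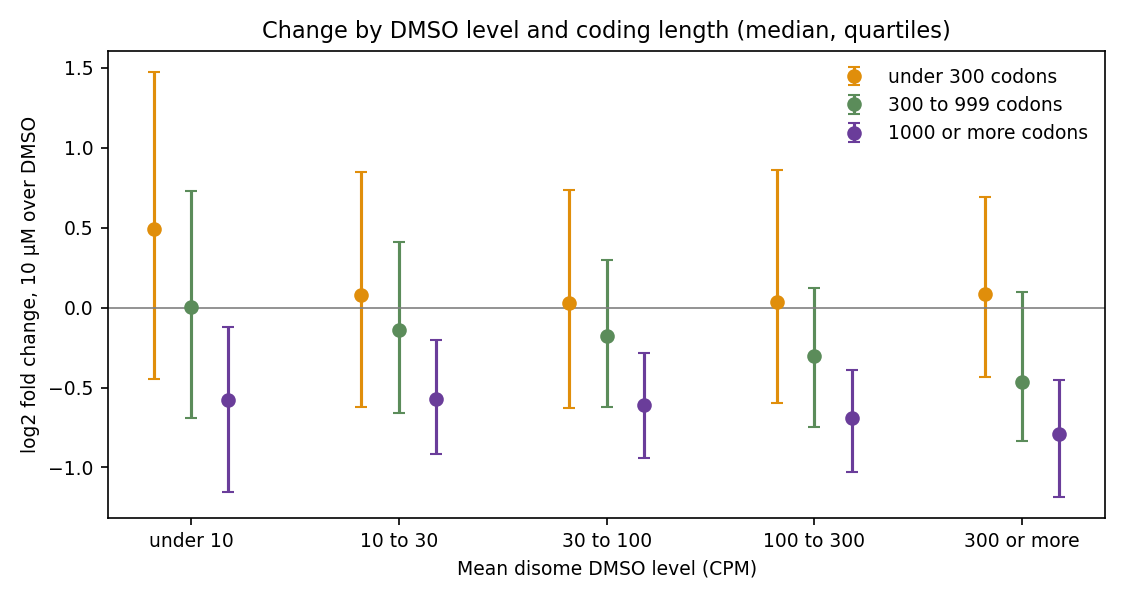
Points give the median log2 fold change at 10 µM over DMSO, and bars the quartiles over loci, by mean disome level with DMSO and by coding length. Loci of 1000 codons or more have a median below 0 in each of the 5 classes, down to -0.79 at 300 CPM or more, and loci under 300 codons have a median above 0 in each.

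The share of the counts held by each class shows the size of this shift. Reads of overlapping transcripts can be counted in more than 1 locus, so these are not shares of distinct footprints. Loci of 1000 codons or more held 11.5% and 12.7% of the counts with DMSO and 7.08% at 10 µM. Those of 500 to under 1000 codons went from 23.3% and 24.1% to 17.1%. Loci of 100 to under 200 codons held 23.5% and 22.7% with DMSO and 29.95% at 10 µM, and those under 100 codons 6.28% and 5.99% against 7.78%. By abundance, loci of 300 CPM or more went from 43.9% and 42.6% to 39.8%. Each of these 10 µM values lay outside the DMSO pair, and n was 1 at 10 µM.

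Most of the 10 loci with the most disomes in untreated cells were lower at 10 µM. These 10 were long, with a median of 644.5 codons, beside 280 over all loci tested. Of the 10 loci with the highest mean DMSO level, 8 were called lower and 0 higher by edgeR, and 5 lay more than 2-fold below both DMSO libraries. None was higher at an unadjusted p under 0.05, and DESeq2 called 5 lower and 0 higher. The 10 highest loci of each library held 6.68% and 6.29% of its counts in the DMSO pair, 5.64% after 1 µM and 4.73% after 10 µM. The 100 highest loci held 21.8% and 20.9% with DMSO and 21.6% at 10 µM. These shares take each library's own highest loci. Among the 100 loci highest with DMSO, which had a median of 237.5 codons, 40 were lower and 30 higher, with a median log2 fold change of -0.099. Among the 1000 highest, with a median of 330 codons, 425 were lower and 242 higher.

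First in this order was a locus of 463 codons, at 10444 and 10536 CPM with DMSO and 8186 CPM at 10 µM, with a log2 fold change of -0.36 ± 0.11 (SE; edgeR quasi-likelihood test, Benjamini-Hochberg adjusted p = 0.0049). Next to it stood a locus of 686 codons with 10428 and 9755 CPM in the DMSO pair, against 8590 CPM after 1 µM and 3550 CPM after 10 µM. Its log2 fold change was -1.51 ± 0.12 (SE; edgeR, Benjamini-Hochberg adjusted p = 9.5e-34), the largest loss of CPM of any called locus. Per 100 codons, the 463-codon locus had 2266 CPM with DMSO and the 686-codon locus 1471 CPM.

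The locus of 642 codons fell furthest of the 10. The DMSO values were 6937 and 6186 CPM, the 1 µM value 5850 CPM and the 10 µM value 1573 CPM, for a log2 fold change of -2.06 ± 0.13 (SE; edgeR, Benjamini-Hochberg adjusted p = 8.8e-51). Its RNA-seq level was 1490 and 950 CPM with DMSO and 1327 CPM at 10 µM, within the DMSO pair, while its monosome level went from 1105 and 1132 CPM to 392 CPM. Both kinds of footprint were thus low at 10 µM at this locus, and its mRNA was not.

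Loci of 733, 725 and 647 codons, also among the 10, behaved alike in disomes. The 733-codon locus had 5752 and 5577 CPM in the DMSO pair, then 3935 CPM at the lower and 2087 CPM at the higher dose (log2 fold change -1.44). The 725-codon locus had 5390 and 5190 CPM, then 3682 and 1796 CPM (-1.56), and the 647-codon locus 5205 and 5258 CPM, then 4913 and 1575 CPM (-1.73). In each the 10 µM value lay below the others, and at 647 codons the 1 µM value lay close to the DMSO pair. Monosome levels at 733 codons were 1280 and 1281 CPM with DMSO and 999.1 CPM at 10 µM, and at 725 codons 774 and 842 CPM with DMSO and 586 CPM at 10 µM. Disomes at these 2 loci thus dropped by a larger factor than monosomes.

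Not all of the highest loci fell. The locus of 859 codons had 5559 and 4426 CPM with DMSO and 4122 CPM at 10 µM, and the edgeR test gave a Benjamini-Hochberg adjusted p of 0.068. The locus of 336 codons had 5035 and 4593 CPM with DMSO and 5427 CPM at 10 µM, with an adjusted p of 0.27 in the same edgeR test with Benjamini-Hochberg adjustment. Loci of 435 and 376 codons were lower, with log2 fold changes of -0.51 and -0.83.

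The 6 largest gains in CPM were at loci well covered in untreated cells, which a ranking by CPM favours. Except for a locus of 428 codons, they were shorter than the median of 280 codons over all loci tested. The locus of 214 codons went from 1992 and 2105 CPM with DMSO to 3825 CPM after 1 µM and 6080 CPM after 10 µM (log2 fold change 1.57 ± 0.12, SE; edgeR, Benjamini-Hochberg adjusted p = 9.1e-35). The locus of 220 codons went from 1483 and 1467 CPM to 2582 and 5436 CPM (log2 fold change 1.88). Their RNA-seq levels were 1208 and 1224 CPM with DMSO and 1577 CPM at 10 µM for the first, and 1027 and 951 CPM with DMSO and 1214 CPM at 10 µM for the second. The mRNA values at 10 µM were thus above both DMSO values, by less than the disome values. Monosome levels at 220 codons were 863 and 881 CPM with DMSO and 919 CPM at 10 µM.

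The steepest rise among the 6 largest gains was at a locus of 212 codons, from 448 and 456 CPM with DMSO to 1028 CPM after 1 µM and 3191 CPM after 10 µM. The fit gave a log2 fold change of 2.82 ± 0.14 (SE; edgeR, Benjamini-Hochberg adjusted p = 7.0e-80). RNA-seq gave 1716 and 1412 CPM with DMSO and 1109 CPM at 10 µM, so mRNA was lower where disomes were higher. Loci of 428, 131 and 166 codons completed the list, with log2 fold changes of 1.41, 1.51 and 1.10 and RNA-seq values at 10 µM below both DMSO values.

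**Figure D4:**
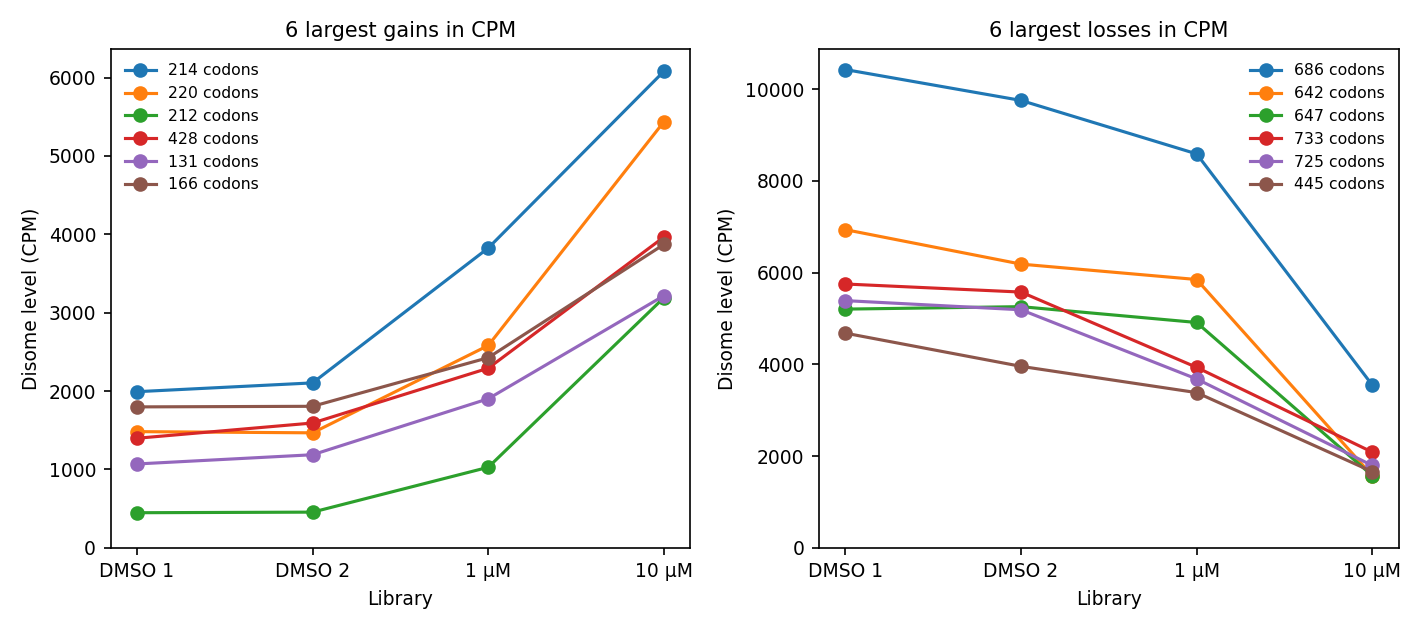
Disome levels in CPM of the 6 loci with the largest gain (left) and the 6 with the largest loss (right) among called loci, in each of the 4 disome libraries, with lines joining the values of a locus. The 2 DMSO values of a locus lie close together, and the 10 µM value lies above both on the left and below both on the right.

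The 6 largest losses held a larger share of all loss than the 6 largest gains of all gain, and the 100 largest of each held like shares. Summed over all loci tested, 9463 loci gained 309561 CPM and 10018 lost 221212 CPM, where the sums differ because of the scaling between libraries. The 6 largest losses, the sixth at a locus of 445 codons (4681 and 3957 CPM with DMSO, 1661 CPM at 10 µM), made up 11.3% of all loss, and the 6 largest gains 5.61% of all gain. The 100 largest gains (35.1% of the gain) had a median of 172 codons, and the 100 largest losses (34.9% of the loss) 466 codons.

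The largest fold changes stood at other loci than the largest gains and losses. Loci were ranked by fold among the 1726 higher and 1025 lower loci that were more than 2-fold from both DMSO libraries with a mean of at least 10 CPM over the 4 disome libraries. The 10 largest rises had 36 to 278 codons and 2 to 12 counts in the DMSO libraries together. In none of them did a DMSO library reach the filter level of 5.14 CPM, so all 10 entered the test through treated libraries. Of the 1905 loci with neither DMSO library at that level, edgeR called 0 lower, so a rise was in effect the only call open to them. The first of the rises, uc058elf.1, a coding sequence of 41 codons, counted 0 and 2 disomes in the DMSO libraries, 23 after 1 µM and 145 after 10 µM. The ratio of its level at 10 µM to that with DMSO was 109, with a 95% exact interval of 29.6 to 907 for counting error only. This value rests on DMSO 2. The edgeR log2 fold change of uc058elf.1 was 6.62, and 6.73 when fitted jointly with the RNA-seq libraries. In that joint fit it was 6.08 without DMSO 1. Without DMSO 2 it was 12.09, where its DMSO count is 0 and the value depends on the fit's prior. The second, uc059byk.1, with 37 codons, counted 1 in each DMSO library, 30 after 1 µM and 83 after 10 µM, a ratio of 62.3 (95% exact interval 16.7 to 523).

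The 10 largest falls had 17 to just under 1000 codons and 1 to 21 counts at 10 µM. In the first, uc064mqb.1, of 90 codons, the DMSO counts were 26 and 35, followed by 9 at the lower and 1 at the higher dose. Its level with DMSO was 40.6 times that at 10 µM, with a 95% exact interval of 7.02 to 1631. In uc063dqg.1, of 72 codons, the DMSO counts were 32 and 39, followed by 23 and 2, a ratio of 23.6 (exact interval 6.31 to 199.05). The values at both doses rest on the same DMSO libraries. A further 8 loci had no DMSO count and 13 to 27 counts at 10 µM, and like the 10 largest rises entered the test through treated libraries only. Of 24 loci with a count of 0 at 10 µM, 13 were called lower.

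Most of these extreme loci were entries beside a longer one with more counts in the same stretch of the table. Such a shorter neighbour, no higher in any of the 8 disome and RNA-seq libraries than an entry within 3 rows, made up 51.5% of loci tested, 8 of the 10 largest rises and 10 of the 10 largest falls. Reads of a short isoform can be counted again in the longer one, and whether the neighbours belong to 1 gene was not tested. Among 10026 such pairs, 2098 had both members called. In 1158 pairs both were higher and in 722 both lower. In 158 the shorter was higher and the longer lower, and in 60 the reverse, so 10.4% of the pairs with 2 calls were opposed. Another 747 shorter neighbours were higher and 388 lower beside a longer entry that was not called. Of 5772 longer entries, 144 had both a shorter neighbour that rose and one that fell.

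The largest fall shows this at close range. uc064mqb.1 (90 codons, 26, 35, 9 and 1 counts in DMSO 1, DMSO 2, 1 µM and 10 µM) is followed in the table by an entry of 70 codons with 4, 8, 31 and 168 counts, itself among the 10 largest rises at a log2 fold change of 4.37. Close by in the table, an entry of 4129 codons had 1001, 1729, 1077 and 1085 counts and a log2 fold change of -0.74. The 2 short entries crossed over between DMSO and 10 µM while the long one moved little by comparison. In a second case an entry of 48 codons fell from 142 and 213 counts in the DMSO pair to 76 after 1 µM and 21 after 10 µM. A longer neighbour of 574 codons had 1215, 2061, 2790 and 2556 counts, not a called change, and one of 83 codons went from 56 and 86 to 138 and 430 counts.

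Around uc058elf.1 several entries carried the same gain. Entries of 44 and 71 codons had 0 and 4, and 1 and 4, counts with DMSO and 150 and 144 at 10 µM, close to the 2 and 145 of uc058elf.1. They lay inside the span of a locus that also holds an entry of 185 codons with 59 and 77 counts with DMSO and 272 at 10 µM, and had been added to that locus, while uc058elf.1 lies just outside the span. Another entry between them, of 65 codons, had 22, 21, 16 and 26 counts, and one of 94 codons had 28, 23, 29 and 26. Entries with and without the gain thus alternated within a few rows. Where in a transcript these footprints lie was not analysed here.

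**Figure D5:**
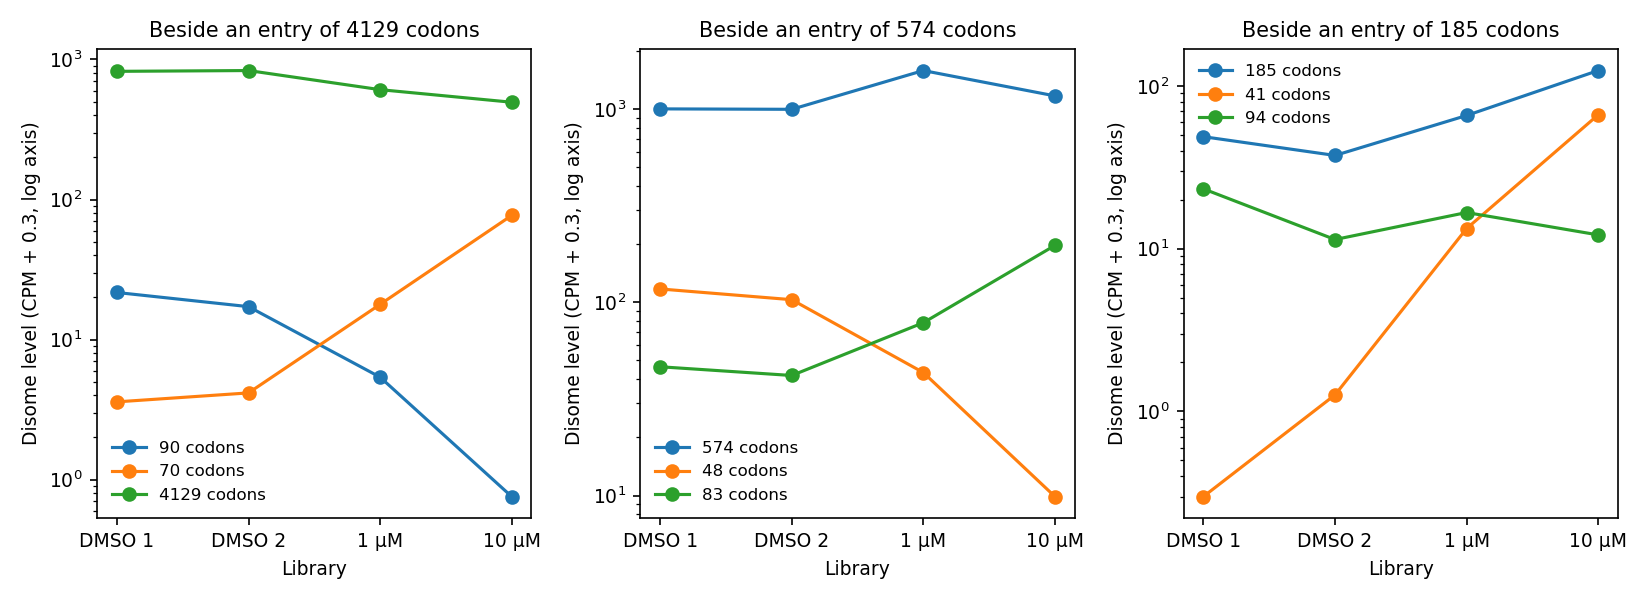
Disome levels (CPM plus 0.3, log axis) in the 4 disome libraries for 3 entries in each of 3 neighbourhoods of the table, named by the codons of each entry. On the left and in the middle 1 short entry falls and another rises beside a longer one, and on the right an entry of 41 codons rises from 0 and 2 counts to 145 while one of 94 codons has 28 and 23 counts with DMSO and 26 at 10 µM.

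Calls of 1 direction also lay side by side over longer stretches. There were 94 runs of 5 or more adjacent higher loci, with 556 loci in them and a longest run of 11, and 30 runs of adjacent lower loci, with 165 loci and a longest run of 9. Neighbouring loci may share reads that the joining did not catch, so such runs may each be 1 gene.

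Changes in mRNA were small beside those in disomes. RNA-seq at 10 µM against DMSO had a median log2 change of -0.12 at the loci with more disomes and 0.13 at those with fewer, beside 0.03 over all loci tested, so the small shifts ran opposite to the disome calls. RNA-seq differed more than 2-fold at 1.45% of the higher and 0.68% of the lower loci, beside 0.88% of all loci tested. Monosome values could be set beside 11017 of the loci, by matching the order of coding lengths between the tables. Their median log2 change was 0.27 at 2040 loci with more disomes and -0.27 at 1480 with fewer, beside 0.07 over all those matched. The monosome change had the sign of the disome change at 81.4% of the higher and 76.4% of the lower loci, beside 66.0% over all matched loci and 59.8% of those not called. At 30 CPM or more with DMSO it had that sign at 67.6% of the higher and 78.0% of the lower loci. It exceeded 2-fold at 5.05% of the higher and 3.58% of the lower loci, beside 2.41% of all. At the same matched loci the median disome changes were 1.46 and -1.17, several times the monosome values. The disome calls picked these loci, so disome medians larger than monosome or mRNA medians are partly built in. Over all matched loci the median disome change was -0.06, beside 0.07 for monosomes.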

How the data were processed

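Disome, monosome and RNA-seq libraries (2 DMSO, 1 at 1 µM and 1 at 10 µM of each) were used from the tables the authors deposited, 1 per library, with raw counts per transcript and a coding length (an other unit, read as codons). Per the submitters' processing notes the build was hg38, and CASAVA 1.8 and STAR 2.7.0a are named without their roles. Not given in the sources used here were the counting tool, its treatment of reads that match several transcripts and the annotation release. Per the labels' protocols, footprints were made with RNase I and rRNA depletion. Double counting of reads in overlapping transcripts inflates totals and ties neighbouring values together.

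The 88482 disome entries with no coding length held 0 counts and were dropped, and lengths in RNA-seq and monosome tables were raised by 20 and 10 to match. Entries with 20 or more disome counts within 10 rows of each other were joined into a locus where counts differed less than 1.5-fold in all 8 disome and RNA-seq libraries, or were equal at 20 or more in at least 2. Entries inside the span of a locus with no more counts than its highest entry were added to it. Of adjacent entries 39.8% were joined by this rule, against 0.524% of entries 1000 rows apart. Monosome entries were matched by unique runs of 4 coding lengths, which placed 56220 transcripts (59.9%). Across matched transcripts, the Spearman correlation of RNA-seq with monosome counts was 0.782, and 0.00036 after a shift of 50 rows.

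Counts were tested in edgeR 4.0.16 (R 4.3.3) with TMM scaling (factors 1.03, 1.05, 0.975 and 0.951 for DMSO 1, DMSO 2, 1 µM and 10 µM), filterByExpr at 10 counts, the quasi-likelihood test and Benjamini-Hochberg adjustment at 0.05. All 4 disome libraries entered in 3 groups, with 1 residual degree of freedom and a biological coefficient of variation of 10.8%. Disome CPM are TMM-scaled over loci tested, RNA-seq CPM are per total over loci, and monosome CPM per total over all transcripts, so levels are not comparable between kinds. Log2 changes between single libraries used a pseudocount of 0.5 CPM. Intervals cover counting error only, since reads are not independent molecules. The script was tested on simulated data. Alternatives were DESeq2 1.42.0, other scalings, filters, units and abundance measures, and leaving out each DMSO library.

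Loci are named by 3 rules: the 10 largest rises and falls in fold past the test, 2-fold from both DMSO libraries and at a mean of 10 CPM or more; the 6 largest gains and losses of CPM; and the 10 with the highest DMSO level. The 3 neighbourhoods were picked after their values were seen. The comparison, its classes and lists were chosen with earlier results of these data known. No table used here pairs transcript identifiers with genes, so gene lists, cell type markers and sequences were not analysed here.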

Additional observations from a re-analysis of the deposited data

How the results depend on the processing

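No paired analysis was possible because the 10 µM group has 1 library and its label carries a dose in place of a replicate number. The 3787 higher and 2640 lower loci became 855 and 427 with DESeq2, which gave no adjusted p for 8309 loci. They became 7058 and 5621 with all rows after merging identical neighbours, 7196 and 5172 after merging identical rows anywhere, 1719 and 1208 with 1 row per block of 10, and 1922 and 1345 with the shorter neighbours left out, an alternative chosen after seeing the data. More or fewer rows were tested in each but DESeq2, where the 8309 loci without an adjusted p could not be called. Whether that accounts for its smaller number of calls was not tested. Among loci of 30 CPM or more, the 1029 higher and 1671 lower became 464 and 412 with DESeq2, and the lower loci 1069 with 1 row per block of 10. Fitting the RNA-seq libraries jointly gave 3990 higher and 2815 lower loci. Leaving out 1 DMSO disome library from that fit left no disome group with replicates. The spread then came from the RNA-seq DMSO pair alone, so only effect sizes are given for it. The median log2 fold change of all loci was -0.018 without DMSO 1 and -0.034 without DMSO 2, beside -0.037 with both. Total counts in place of TMM moved the median of all loci from -0.04 to -0.17 and gave 2567 higher and 2338 lower loci.

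With classes from RNA-seq, the median of the class under 10 CPM turned from 0.26 to -0.17, that of 10 to 30 CPM from -0.11 to 0.032 and that of 300 CPM or more from -0.27 to 0.20. With classes from the mean of the 4 disome libraries, the first turned to -0.032 and the second to 0.0021, and the cause was not tested. Without the loci that had neither DMSO library at the filter level, left out after seeing the data, the median under 10 CPM was -0.076. Leaving them out selects on the DMSO libraries, which can itself lower this median. Total counts turned the median at 300 to under 500 codons from 0.045 to -0.084, with the shift of all loci. Of the other medians by class, 45 moved by more than their DMSO spread and 24 by less, with no change of sign. Of the values of single named loci under the alternatives, 435 kept their direction and side of the threshold, 4 fell short of it, all with DESeq2, and 3 passed it. That tally holds no DESeq2 value for uc064mqb.1, the largest fall, or for uc059xnl.1, among the 10 largest rises. It also includes the fits without 1 DMSO library, where the side of the threshold rests on the RNA-seq DMSO pair. With 1 library at 10 µM, depth limits the loci under 10 CPM most.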
